A study of Mus musculus with 9 samples.

Results

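The COPII coat wraps the vesicles that carry newly made proteins out of the endoplasmic reticulum (ER) towards the Golgi. Of its genes, 10 were followed in RNA sequencing of pancreatic islets, the hormone-secreting cell clusters of the pancreas. They were Sar1a, Sar1b, Sec13, Sec23a, Sec23b, Sec24a, Sec24b, Sec24c, Sec24d and Sec31a. The genes were chosen by name, with earlier results of these data known, so shares set beside all genes describe a chosen list. Each matched 1 of the 56941 Ensembl identifiers in the count table. The islets came from wild-type male C57BL/6J mice that were 15 weeks old when their diets began and ate them for 9 months. The low fat diet (LFD, the control, 3 libraries) held 10% fat, the high fat diet (HFD, 2 libraries) 60% and the ketogenic diet (KD, 4 libraries) 89.9%. Nothing in the labels used here says whether each library is a separate animal, so the p-values below measure the spread between these libraries only.

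Coat assembly starts when the small GTPase Sar1 is loaded with GTP by its exchange factor, Preb (also called Sec12), and inserts into the ER membrane. Sar1 recruits pairs of Sec23, which speeds GTP hydrolysis by Sar1, and Sec24, which binds cargo. Sec13 and Sec31 then assemble around them as an outer cage. Beta cells and acinar cells both export large amounts of protein by this route, proinsulin in the former and digestive enzymes in the latter. In mice, loss of Sec23b is known to damage the pancreas.

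Library totals ran from 15513502 to 26588390 counts, and every coat gene had between 331 and 6954 counts in every library. The libraries differed in their shares of cell type marker counts. A list of 23 acinar markers took 15.0% to 35.4% of counts on LFD, 11.3% and 18.9% on HFD, and 60.5%, 44.6%, 56.2% and 20.4% in KD replicates 1 to 4. For KD against LFD, edgeR called 0 of the 23 higher and 1 lower, against 0.981% and 3.14% of all genes tested. Their median log2 fold change was 1.54. A list of 10 beta cell markers, Ins1 and Ins2 among them, took 5.72% to 9.49% on LFD, 12.9% and 11.6% on HFD, and 1.68%, 5.08%, 2.89% and 12.8% in KD replicates 1 to 4. All 10 beta cell markers were detected in every library, and KD replicate 4 stood apart from the other KD libraries in both lists. Lymphocyte markers (12 genes) summed to 87.4 to 1320 CPM (counts per 1000000 counts of scaled library size) on LFD, from 75.2 to 86.4 on HFD and from 8.82 to 31.5 on KD. Of the 12, 9 were at 0 in at least 1 library. By edgeR, 11 of the 12 were called lower on KD than on LFD, against 3.14% of all genes tested. The sources used here give no date or batch of any library, and an unrecorded batch cannot be told apart from diet. In such bulk samples, fewer cells of a type and less RNA per cell cannot be told apart.

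The start sites of the coat genes are shown because several share a short sequence that factors of the ER stress response are known to recognise. Promoter windows of 250 bases before to 50 after each start site were taken from RefSeq (build GRCm38.p6), which held 12 windows for the 10 genes. The core TGACGT, searched on both strands, lay in 6 of these 12 windows, from 6 of the 10 genes. It lay in 7.51% of all 32851 windows. Each match is written on the strand where it reads TGACGT. Capitals mark that core, or TGACGTGG where it goes on to the full unfolded protein response element, a sequence that Xbp1 and Atf6 are known to bind.
Sec24d, gene strand, chr3:123267459-123267486 (+): gcccgggcgccTGACGTGGcactagcaa
Sec23a, gene strand, chr12:59011995-59012022 (-): ctcctccccttTGACGTGGcagaggcgg
Sec23b, gene strand, chr2:144556209-144556236 (+): gcgccgcgaaaTGACGTttcggagcggt
Sec24c, gene strand, chr14:20674339-20674366 (+): cctgggagcctTGACGTtaggaacgaag
Sec24a, opposite strand, chr11:51757055-51757082 (+): aagattaatttTGACGTtagcctgttgg
Sec24a, opposite strand, chr11:51757004-51757031 (+): aaaatgtctgaTGACGTtaaggaggaag
Sar1a, opposite strand, chr10:61680175-61680202 (-): ggcctaaggagTGACGTacgctcggggt
Sar1a, gene strand, chr10:61680300-61680327 (+): agggaggggcgTGACGTacatccggcgc

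The full element TGACGTGG, which contains the core, lay in 2 of the 12 windows, those of Sec24d and Sec23a, and in 0.676% of all windows. The cyclic AMP response element TGACGTCA, which also contains the core, was in 0 of the 10 genes' windows and in 1.79% of all. The ER stress response element (CCAAT, then 9 bases of any kind, then CCACG) was in 0 of the 10 and in 0.119% of all. In Sec24d the element began 26 bases before the start site, inside this stretch of 250 bases upstream (chr3:123267246-123267495, + strand), where it is in capitals.
Sec24d: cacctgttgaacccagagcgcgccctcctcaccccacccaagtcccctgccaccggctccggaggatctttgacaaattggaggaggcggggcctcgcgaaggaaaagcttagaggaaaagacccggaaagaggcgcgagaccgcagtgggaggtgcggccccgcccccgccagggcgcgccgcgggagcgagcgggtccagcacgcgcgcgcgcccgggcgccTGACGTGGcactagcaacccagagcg
All motifs were searched on both strands. These matches describe letters in a window, and binding was not measured. The 2 genes with the full element had KD means on opposite sides of the LFD means, and for Sec23a the libraries of these diets overlapped.

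Levels were compared between the coat genes as CPM per kilobase of exon, with each gene's merged exon length from GENCODE M21. On LFD, Sar1a was at the top with 40.8 ± 0.339 (SD, n = 3), followed by Sar1b with 33.5 ± 1.25 (SD, n = 3) and Sec31a with 31.3 ± 0.675 (SD, n = 3). The libraries of those 3 genes did not overlap with each other. Next came Sec23b (20.4 ± 4.19), Sec24d (18.4 ± 2.53), Sec24c (17.4 ± 1.77) and Sec13 (14.95 ± 2.23), each overlapping its neighbour in this order. Sec23a (9.44 ± 2.23) and Sec24b (8.004 ± 0.656) overlapped each other, and Sec24a (5.62 ± 0.491, SD, n = 3 for all) was lowest. The abundant members of each family were thus Sec23b over Sec23a, and Sec24c and Sec24d over Sec24a and Sec24b. On HFD, Sar1b had the highest mean, 51.9 ± 10.2 CPM per kilobase (SD, n = 2), but overlapped Sar1a (48.9 ± 1.17). On KD, Sec31a had the second highest mean, 41.4 ± 3.32 (SD, n = 4), and overlapped Sar1a above it (49.1 ± 6.72) and Sar1b below it (31.1 ± 10.2). Sec24a had the lowest mean on each diet, and on HFD and KD its libraries overlapped those of Sec24b.

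**Figure D1:**
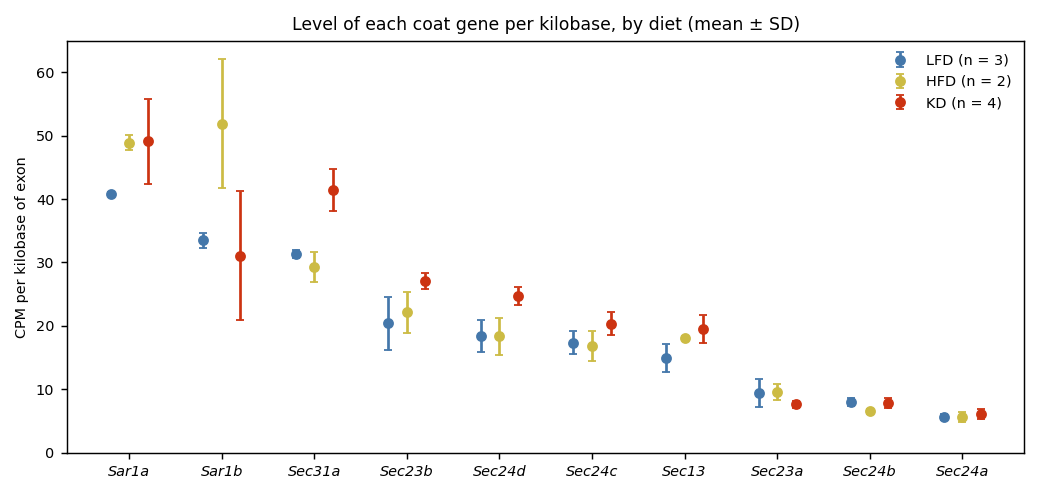
Mean ± SD of CPM per kilobase of exon for each coat gene on LFD (n = 3), HFD (n = 2) and KD (n = 4), in the order of the LFD means. Sar1a, Sar1b and Sec31a lie above the rest, and the Sar1b bars for HFD and KD span the widest range.

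The comparison of KD with LFD asked what the ketogenic diet changes in islet transcripts. Differences were tested with edgeR's quasi-likelihood test over 18548 genes, and all 10 coat genes passed its low-count filter. Of the coat genes, 0 of 10 passed an adjusted p of 0.05 (Benjamini-Hochberg), where 4.12% of all genes tested did. At an unadjusted p below 0.05, 4 of 10 were higher on KD (Sec31a, Sec24d, Sec13 and Sec23b) and 0 lower, where 10.8% of all genes were higher at that level. The median log2 fold change was 0.25 over the coat genes and -0.02 over all genes. The KD libraries lay wholly above the LFD libraries for 4 of 10 (Sar1a, Sec23b, Sec24d and Sec31a), against 9.69% of all genes. Summed over the 10 genes, the coat took 1004, 1031 and 956.3 CPM in LFD replicates 1 to 3, 1013 and 1076 in HFD replicates 1 and 2, and 1223, 1186, 1267 and 1187 in KD replicates 1 to 4. On this TMM scale, whose factors ran from 0.5415 in KD replicate 1 to 1.503 in HFD replicate 2, every KD library was above every LFD and HFD library. On unscaled library totals, a scaling added after seeing the data, the order differed, with 1055, 1277 and 1198 CPM on LFD, 1242 and 1615 on HFD and 661.8, 1002, 783.6 and 1386 on KD. That scaling put the median of all genes at -0.55 (log2) for KD against LFD, and the coat mean at -0.46. Levels on TMM are therefore relative to the bulk of genes and not to all RNA of a library. On TMM the difference in mean log2 CPM of the coat between KD and LFD was 0.18, and it lay between 0.15 and 0.19 when any single library was left out.

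Of the cage genes, Sec31a separated the KD libraries from the LFD libraries and Sec13 did not. Sec31a, which forms the rods of the cage, measured 243.5, 252.9 and 243.8 CPM in LFD replicates 1 to 3. It measured 343.7, 309.8, 353.7 and 299.2 CPM in KD replicates 1 to 4. The lowest KD library was above the highest LFD library, and KD replicates 1 and 3, with the highest acinar marker shares, were the highest. In edgeR the log2 fold change came to 0.40 (SE 0.13, adjusted p 0.103). The DESeq2 Wald test, which called 9.56% of all genes, gave Sec31a an adjusted p of 0.0175 and called no other coat gene. With an acinar score (from the marker list) as a covariate the edgeR log2 fold change of Sec31a was 0.35 (adjusted p 0.103). Sec13, its partner in the cage and also a nuclear pore subunit, measured 55.5, 45.4 and 41.9 CPM on LFD and 66.5, 52.3, 67.2 and 62.3 CPM on KD. The groups overlapped through LFD replicate 1 and KD replicate 2, and in edgeR the log2 fold change came to 0.38 (SE 0.14, adjusted p 0.132).

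Among the cargo adaptors, Sec24d alone had KD libraries wholly above the LFD libraries. Sec24d measured 111.5, 134.0 and 102.9 CPM on LFD and 155.0, 161.3, 165.2 and 144.0 CPM on KD. Its groups did not overlap, with a log2 fold change of 0.43 (SE 0.14, adjusted p 0.104 by edgeR). Its closest paralogue Sec24c measured 108.2, 121.0 and 98.8 CPM on LFD and 142.7, 125.4, 130.1 and 114.6 CPM on KD. KD replicate 4 fell within the LFD range, and in edgeR the log2 fold change came to 0.23 (SE 0.13, adjusted p 0.335). Sec24a had a log2 fold change of 0.12 (SE 0.14), with 54.0 to 63.4 CPM on LFD and 55.1 to 76.7 CPM on KD. Sec24b had one of -0.03 (SE 0.12), with 43.9 to 51.7 CPM on LFD and 40.0 to 50.1 CPM on KD. Of both genes, the libraries of the diets overlapped.

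The KD means of the Sec23 paralogues lay on opposite sides of LFD, Sec23b above and Sec23a below. Sec23b measured 146.3, 140.9 and 98.1 CPM on LFD and 181.2, 169.3, 169.3 and 163.1 CPM on KD, with no overlap. The edgeR test put its log2 fold change at 0.41 (SE 0.16, adjusted p 0.152). Sec23a measured 39.4, 39.6 and 58.2 CPM on LFD and 35.2, 36.0, 40.9 and 35.2 CPM on KD. KD replicate 3 was above LFD replicates 1 and 2, and in edgeR the log2 fold change came to -0.31 (SE 0.16, adjusted p 0.262). LFD replicate 3 had the lowest Sec23b and the highest Sec23a of the LFD libraries. Without it the log2 fold changes were 0.25 for Sec23b and -0.10 for Sec23a, with edgeR adjusted p of 0.370 and 0.735.

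Of the GTPases, Sar1a had every KD library above LFD and Sar1b had KD libraries on both sides. Sar1a measured 151.2, 152.8 and 153.7 CPM on LFD and 155.5, 182.7, 179.7 and 216.6 CPM on KD. The KD libraries were all above LFD, KD replicate 1 by little, and in edgeR the log2 fold change came to 0.27 (SE 0.14, adjusted p 0.264). Sar1b, which is known for its part in lipoprotein export, measured 41.3, 41.0 and 43.8 CPM on LFD and 25.8, 37.6, 36.1 and 56.5 CPM on KD. KD replicates 1 to 3 were below every LFD library and KD replicate 4 above every one, and in edgeR the log2 fold change came to -0.10 (SE 0.22, adjusted p 0.819). Without KD replicate 4 it was -0.34 (edgeR adjusted p 0.226), and without KD replicate 1 it was 0.05.

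**Figure D2:**
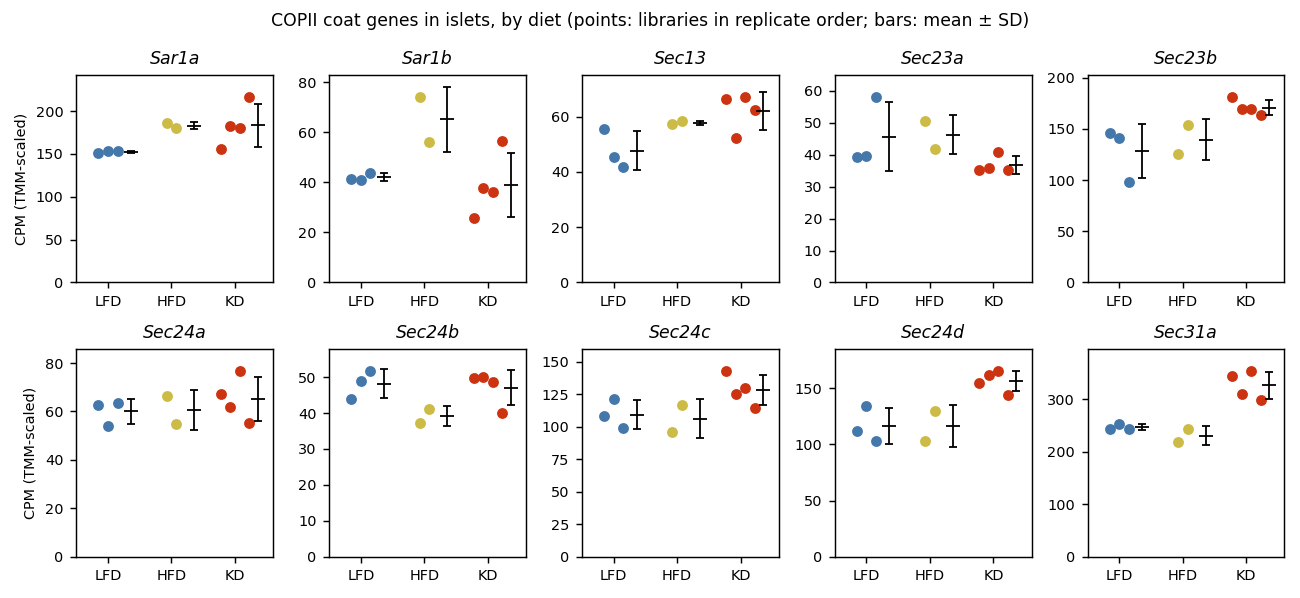
TMM-scaled CPM of each coat gene in every library, as points by diet in replicate order with mean ± SD beside them. For Sec31a and Sec24d all 4 KD points lie above all 3 LFD points, and for Sar1b KD replicate 4 lies apart at 56.5 CPM.

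**Figure D3:**
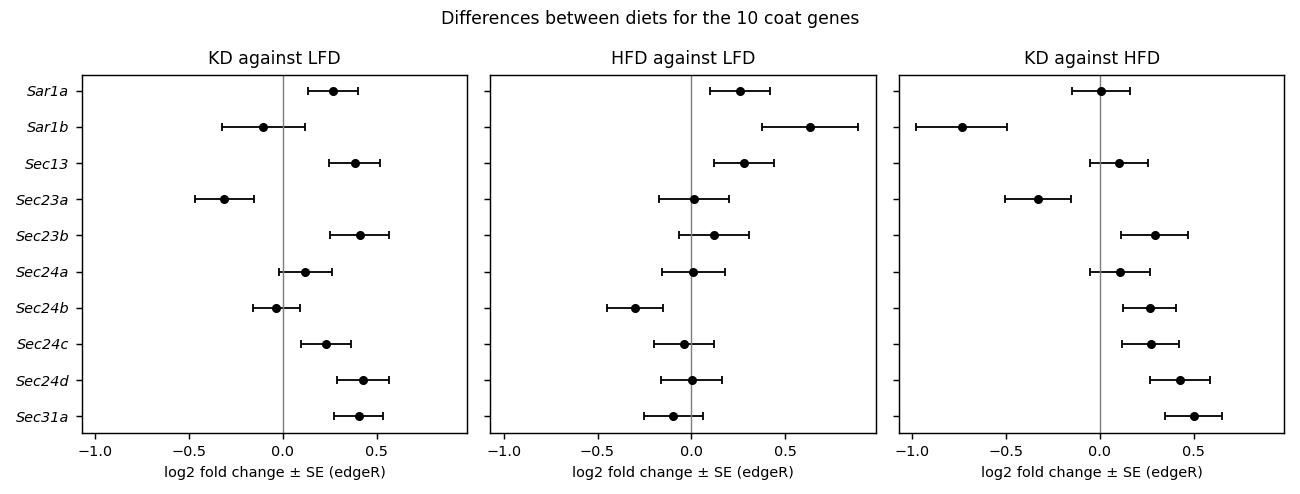
Log2 fold change ± SE of the 10 coat genes from edgeR in each comparison, with 0 marked by a line. Sec31a, Sec24d, Sec13 and Sec23b lie between 0.38 and 0.43 for KD against LFD, and Sar1b moves from 0.63 for HFD against LFD to -0.74 for KD against HFD.

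Ratios of paralogues and subunits were taken within each library, so that library scaling does not enter, and 6 such ratios were tested per comparison by an exact two-sided permutation test over every assignment of the libraries to the 2 diets. For KD against LFD there are 35 assignments, and the smallest p they can give is 0.0286. The log2 ratio of Sec23b to Sec23a counts was 1.89, 1.83 and 0.75 on LFD and 2.36, 2.23, 2.05 and 2.21 on KD. All KD libraries were above all LFD libraries, and the mean difference was 0.72 (exact permutation p = 0.0286, adjusted over the 6 ratios 0.114). Without LFD replicate 3 the difference was 0.35. The log2 ratio of Sar1b to Sar1a was -1.87, -1.90 and -1.81 on LFD and -2.59, -2.28, -2.32 and -1.94 on KD. All KD libraries were below all LFD libraries, KD replicate 4 by the least, and the mean difference was -0.42 (exact permutation p = 0.0571, adjusted 0.114). In CPM per kilobase, Sar1b made up 44.4% to 45.9% of the Sar1 total in the LFD libraries, 48.2% and 54.3% in the HFD libraries and 33.0% to 43.8% in the KD libraries. The size of this share rests on the exon lengths used, 1255 bases for Sar1b and 3740 for Sar1a.

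Within the Sec24 family, the log2 ratio of Sec24c and Sec24d to Sec24a and Sec24b was 1.04, 1.31 and 0.81 on LFD and 1.35, 1.36, 1.24 and 1.44 on KD. LFD replicate 2 lay within the KD range (exact permutation p = 0.0571, adjusted 0.114). The log2 ratio of Sec24d to Sec24c was 0.04, 0.15 and 0.06 on LFD and 0.12, 0.36, 0.34 and 0.33 on KD. KD replicate 1 lay within the LFD range (exact permutation p = 0.0857, adjusted 0.129). For the cage subunits, the log2 ratio of Sec13 to Sec31a averaged -2.38 on LFD and -2.40 on KD (SD 0.22 and 0.13), with an exact permutation p of 0.886. The ratio of Sec23 to the cage genes differed by -0.14 between KD and LFD (exact permutation p = 0.143, adjusted 0.171). None of the 6 ratios passed the adjusted threshold.

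**Figure D4:**
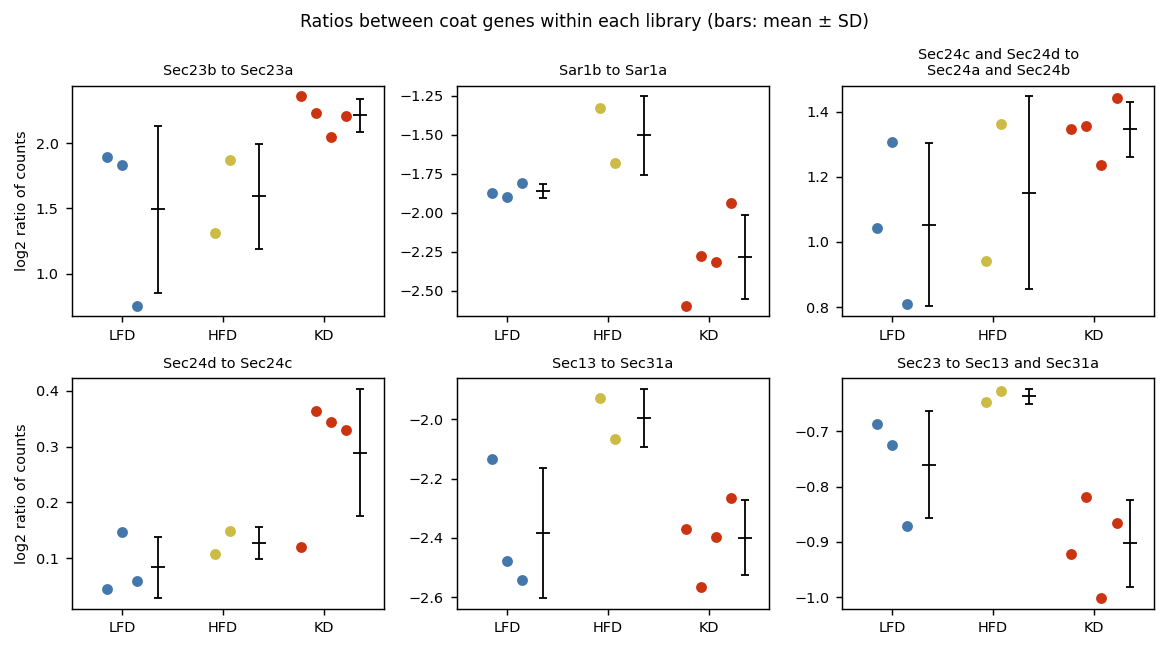
Log2 ratios of counts between coat genes within each library, as points by diet in replicate order with mean ± SD beside them. The KD points lie above all LFD points for Sec23b to Sec23a and below all LFD points for Sar1b to Sar1a, and LFD replicate 3 lies apart at 0.75 in the former.

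HFD against LFD compared the other fat-rich diet with the control. The edgeR test called 0 of 10 coat genes and 0% of all genes, with 1 coat gene (Sar1b) higher at an unadjusted p below 0.05 against 3.55% of all genes. DESeq2 and limma-voom each called 0 coat genes, where they called 1.44% and 0% of all genes. Sar1b measured 74.2 and 56.1 CPM on HFD, both above the 41.0 to 43.8 CPM of LFD. The edgeR test put its log2 fold change at 0.63 (SE 0.26, adjusted p 0.469), and 0.42 without HFD replicate 1. Sar1a, at 186.0 and 179.8 CPM, and Sec13, at 57.3 and 58.3 CPM, were also above every LFD library, with log2 fold changes of 0.26 (SE 0.16, adjusted p 0.591 by edgeR) and 0.28 (SE 0.16, adjusted p 0.574 by edgeR). Sec24b, at 37.2 and 41.1 CPM, was below every LFD library, with a log2 fold change of -0.30 (SE 0.15, adjusted p 0.532 by edgeR). HFD libraries were wholly above LFD for 3 of 10 coat genes and wholly below for 1, against 13.4% and 14.1% of all genes. The other 6 genes overlapped between the diets, with log2 fold changes of -0.10 for Sec31a, -0.04 for Sec24c, 0.0010 for Sec24d, 0.01 for Sec24a, 0.02 for Sec23a and 0.12 for Sec23b, and those of Sec23a, Sec24a and Sec24d fell below 0 under DESeq2 size factors. The log2 ratio of Sar1b to Sar1a was -1.33 and -1.68 on HFD, above every LFD library by a mean of 0.36, and the exact permutation p of 0.100 is the smallest that 10 assignments can give. This difference was 0.18 without HFD replicate 1 and 0.54 without HFD replicate 2.

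KD against HFD compared the fat-rich diets with each other, on libraries that it shares with the comparisons above. The edgeR test called 0 of 10 coat genes and 0% of all genes. At an unadjusted p below 0.05, 2 coat genes were higher on KD (Sec31a and Sec24d) and 1 lower (Sar1b), where 12.1% and 10.6% of all genes were higher and lower. Sec31a measured 217.9 and 244.1 CPM on HFD, below every KD library, and edgeR put its log2 fold change at 0.50 (SE 0.15, adjusted p 0.125). Sec24d measured 103.1 and 129.3 CPM on HFD, also below every KD library, with a log2 fold change of 0.43 (SE 0.16, adjusted p 0.158 by edgeR). Sar1b had a log2 fold change of -0.74 (SE 0.24, adjusted p 0.134 by edgeR), and KD replicate 4, at 56.5 CPM, was just above HFD replicate 2. Without KD replicate 4, where 9.84% of all genes were called, Sar1b and Sec31a passed, with log2 fold changes of -0.97 and 0.54 and edgeR adjusted p of 0.0193 and 0.0472. DESeq2, which called 8.18% of all genes, called Sec31a alone among the coat genes (adjusted p 0.00993). Wholly separate libraries were found for 3 coat genes higher on KD (Sec23b, Sec24d and Sec31a) and 1 lower (Sec23a), against 15.7% and 18.2% of all genes. The log2 fold changes of Sec23b and Sec23a were 0.29 (SE 0.18) and -0.33 (SE 0.18), and 0.16 and -0.18 without HFD replicate 1. The other 5 genes overlapped, with log2 fold changes of 0.0061 for Sar1a, 0.10 for Sec13, 0.11 for Sec24a, 0.27 for Sec24b and 0.27 for Sec24c, all in edgeR. For 4 of the 6 ratios the libraries did not overlap, and their exact permutation p of 0.0667 (adjusted 0.100) is the smallest that 15 assignments can give. These were Sec23b to Sec23a (difference 0.62), Sar1b to Sar1a (-0.78), Sec13 to Sec31a (-0.40) and Sec23 to the cage genes (-0.26). Without HFD replicate 1 the difference for Sec23b to Sec23a was 0.34.

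The marker content of the libraries moved with some of these values. Sar1b was highest in HFD replicate 1 (74.2 CPM), KD replicate 4 (56.5) and HFD replicate 2 (56.1), the libraries with 12.9%, 12.8% and 11.6% of counts from beta cell markers. It was lowest in KD replicate 1 (25.8 CPM), with 1.68% beta cell and 60.5% acinar marker counts. Sec31a on KD was 299.2 CPM at an acinar share of 20.4% (replicate 4), 309.8 at 44.6% (replicate 2), 353.7 at 56.2% (replicate 3) and 343.7 at 60.5% (replicate 1). On LFD it was 243.5 CPM at 35.4%, 252.9 at 24.8% and 243.8 at 15.0% in replicates 1 to 3. With the acinar score as a covariate, the log2 fold changes for KD against LFD were 0.40 for Sec24d, 0.33 for Sec23b, 0.30 for Sec13 and 0.37 for Sar1a, and that of Sar1b was 0.10. In that fit 0 of the 10 coat genes passed, where 7.68% of all genes did. For KD against HFD with that covariate, Sec31a had a log2 fold change of 0.39 and Sar1b one of -0.30, with edgeR adjusted p of 0.467 and 0.713. The acinar shares of these diets did not overlap, with 11.3% and 18.9% on HFD and 20.4% to 60.5% on KD. Acinar marker share and diet can therefore not be cleanly told apart in that fit. Plasma cell markers (6 genes), from a cell type that also exports much protein, summed to 18.6 to 207 CPM on LFD, 24.8 and 38.8 on HFD and 12.7 to 21.8 on KD. The part of acinar cells, plasma cells, lymphocytes and of the other marker lists in the coat values was not tested.

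**Figure D5:**
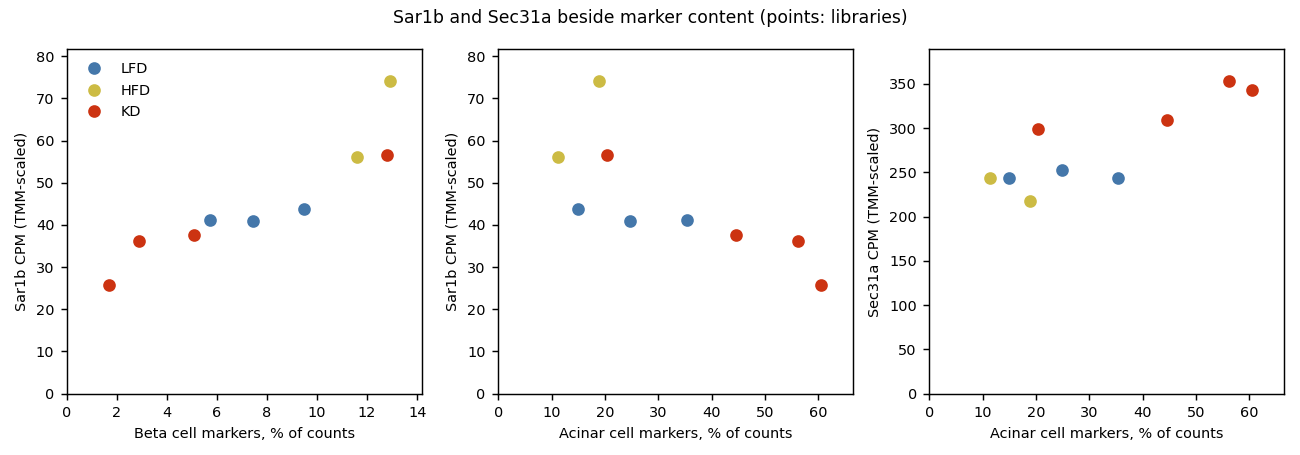
Sar1b and Sec31a CPM in each library against the percentage of counts from beta cell or acinar cell markers, coloured by diet. The 3 libraries with 11.6% to 12.9% beta cell marker counts have the highest Sar1b, and KD replicate 4, at 20.4% acinar marker counts, lies above every LFD library in Sec31a.

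The genes that work beside the coat were taken from lists written for this purpose. The 12 genes listed as assembly or ER exit site factors included Sec31b, the Sar1 exchange factor Preb and the scaffold Sec16a. Of the 12, 0 passed for KD against LFD, where 4.12% of all genes did. At an unadjusted p below 0.05, 5 were higher and 0 lower, against 10.8% and 11.9% of all genes, and the median log2 fold change was 0.34. Of 18 cargo receptors, 3 were called higher and 0 lower, where 0.981% of all genes were called higher. At an unadjusted p below 0.05, 10 were higher and 1 lower, against the same 10.8% and 11.9%, and the median was 0.42. Tmed10, a p24 family receptor, averaged 136.1 ± 8.0 CPM over the 3 LFD libraries and 208.6 ± 7.80 over the 4 KD libraries (SD), and so rose by a log2 fold change of 0.62 (SE 0.12, adjusted p 0.0200 by edgeR). Tmed2, its partner in the p24 complex, rose by 0.56 on the log2 scale (SE 0.12, adjusted p 0.0282 by edgeR), and Ergic3, a receptor that cycles between ER and Golgi, by 0.51 (SE 0.12, adjusted p 0.0439 by edgeR). These calls did not hold in every omission of a library, though the log2 fold changes stayed above 0. With a library left out, they ran from 0.57 to 0.66 for Tmed10, 0.50 to 0.61 for Tmed2 and 0.42 to 0.58 for Ergic3. Calls over all genes were 4.12% with all libraries and 0.97% without LFD replicate 1. Leaving out LFD replicate 1 gave edgeR adjusted p of 0.0860 for Tmed10, 0.118 for Tmed2 and 0.139 for Ergic3. Tmed10 also missed the threshold without LFD replicate 2 and without KD replicates 2 and 3, Tmed2 on leaving out each LFD library and without KD replicates 1, 2 and 3, and Ergic3 on leaving out each single library other than KD replicate 4. Ergic3 missed it as well by limma-voom (adjusted p 0.0674), and in edgeR with TMM computed without acinar and hormone genes (0.0501), without a count filter (0.05), among genes of at least 5 CPM (0.0652) and with only the diets compared (0.0654).

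Of 21 tethers, small GTPases and SNARE proteins that receive the vesicles at the Golgi, 1 was called higher and 0 lower for KD against LFD, against 0.981% of all genes called higher. There were 8 higher and 0 lower at an unadjusted p below 0.05, against 10.8% and 11.9% of all genes, and the median was 0.15. The called gene was Gorasp2, a Golgi stacking protein, which averaged 108.6 ± 15.2 CPM over the 3 LFD libraries and 186.0 ± 30.2 over the 4 KD libraries (SD), a rise in log2 fold change of 0.78 (SE 0.16, adjusted p 0.0243 by edgeR). Leaving out libraries, edgeR gave it an adjusted p of 0.106 without LFD replicate 1, and 0.0501, 0.0523 and 0.0726 without KD replicates 1, 2 and 3. For all 5 lists beside the coat, edgeR called 0 genes for HFD against LFD and 0 for KD against HFD.

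Of 9 transcription factors of ER stress and secretory capacity that were tested, only Creb3l3, an ER-anchored factor known from liver, was called for KD against LFD, where 0.981% of all genes were called higher. In the list, 3 were higher and 1 lower at an unadjusted p below 0.05, against 10.8% and 11.9% of all genes, and the median was 0.34. It averaged 0.495 ± 0.107 CPM over the 3 LFD libraries and 11.5 ± 4.91 over the 4 KD libraries (SD), a log2 fold change of 4.53 (SE 0.43, adjusted p 0.00158 by edgeR). Xbp1, which is known to raise secretory pathway genes, ran from 197.8 to 305.0 CPM in the 3 LFD libraries, from 186.6 to 193.3 in the 2 HFD libraries and from 211.6 to 509.2 in the 4 KD libraries. Between KD and LFD it overlapped, with a log2 fold change of 0.47 (SE 0.26, adjusted p 0.307 by edgeR). That value was 0.0072 with the acinar score as a covariate. Leaving out a library, it was 0.25 without KD replicate 1 and 0.31 without LFD replicate 3. It was 0.61 without LFD replicate 1 and 0.65 without KD replicate 4 (edgeR adjusted p 0.335 and 0.0754). Atf6, an ER membrane sensor, had a log2 fold change of 0.40 (SE 0.14, adjusted p 0.120 by edgeR). Creb3l2, known to activate Sec23a in cartilage cells, had one of 0.27 (SE 0.13, adjusted p 0.246 by edgeR), beside the -0.31 of Sec23a. For both Atf6 and Creb3l2 the KD libraries lay above all LFD libraries. That held for 5 of the 9 factors, with 1 wholly below, against 9.69% and 10.1% of all genes.

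Outside these lists, 10641 genes with at least 5 CPM on average were ranked by how closely their log2 CPM followed the mean standardised level of the coat over the 9 libraries. The closest were Pla2g12a (Pearson r 0.97), Ormdl3 (0.96), Tram1 (0.96), Abhd14a (0.96) and Sgsm3 (0.96), and these values describe 9 libraries that share diet groups and scaling. Tram1, a protein of the ER translocon, ran from 321.0 to 354.3 CPM over the LFD libraries, 362.2 to 391.7 over the HFD libraries and 443.0 to 585.5 over the KD libraries. Ormdl3, an ER protein that restrains sphingolipid synthesis, ran from 30.5 to 32.1 CPM over the LFD libraries, 32.6 to 32.7 over the HFD libraries and 43.9 to 54.6 over the KD libraries.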

How the data were processed

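Poly(A) RNA of 9 islet preparations was sequenced with a stranded kit, per the labels' protocols. The authors deposited raw counts per Ensembl gene with 1 column per sample. The submitters' processing notes name cutadapt 1.16, STAR 2.7.9a, featureCounts 1.6.3, DESeq2 1.40.2 and build GRCm39, and how reads shared by paralogues were counted is not given in the sources used here. Columns were matched to samples by the identifier in the title, and symbols to 51948 of 56941 identifiers.

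Genes were kept by filterByExpr, scaled by TMM and fitted with a mean per diet in edgeR 4.0.16 (robust glmQLFit, R 4.3.3), with Benjamini-Hochberg adjustment over the 18548 genes and a threshold of 0.05. Standard errors are the log2 fold change over the square root of F. Log2 CPM used a prior count of 2. The procedure was tested on simulated data. Alternatives were other scalings, filters and covariates, DESeq2 1.42.0, limma-voom 3.58.1, a replicate block and the omission of each library. The coat genes are all described. From each list the genes past the threshold are named, up to 4, with Xbp1, Atf6 and Creb3l2, and the 5 most similar genes. Ddit3 matched more than 1 identifier and was left out. Members and lists were chosen with earlier results of these data known.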

Additional observations from a re-analysis of the deposited data

Results flagged for a closer look

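Values of the 10 coat genes, the 6 ratios and the coat mean were searched for a KD library whose gap to its nearest neighbour was large for the range of the 4 libraries (above the 95% limit of Dixon's test), which chance exceeds in about 1 of 20 groups. Of 17 searched, 4 exceeded it, 2 of them through KD replicate 3. The ratios and the coat mean are built from the same 10 genes, so the 17 are not independent and the 2 rates cannot be compared directly. Sec23a was 40.88 CPM in KD replicate 3 and 35.22 to 36.0 in the others. Sec24b was 39.97 CPM in KD replicate 4 and 48.63 to 50.12 in the others. The log2 ratio of Sec24d to Sec24c was 0.12 in KD replicate 1 and 0.33 to 0.36 in the others. The coat's mean log2 CPM was 6.62 in KD replicate 3 and 6.52 to 6.54 in the others.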

How the results depend on the processing

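With 3, 2 and 4 libraries per diet, and HFD with the fewest, the calls depended on the setting. Over all genes tested, edgeR called 764 for KD against LFD, against 1773 by DESeq2, 198 by limma-voom, 1062 without a count filter, 383 among genes of at least 5 CPM, 1424 with the acinar covariate and 151 to 1348 when a library was left out. For HFD against LFD the 0 calls became 268 by DESeq2, 81 without a filter and 194 without LFD replicate 3. For KD against HFD the 0 became 1518 by DESeq2, 316 without a filter and 1793 without KD replicate 4. The causes of these differences were not tested.

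Of the 10 coat genes, DESeq2 called 1 for KD against LFD and 1 for KD against HFD. When a library was left out, 0 to 2 were called for KD against HFD. The 0 called for KD against LFD and for HFD against LFD held in each omission. DESeq2 called 9.56% of all genes for KD against LFD. In the lists it called 1 of 12 assembly factors, 9 of 18 cargo receptors, 4 of 21 tethers and 4 of 10 COPI genes. Without a filter, 5 cargo receptors, 2 tethers and 1 COPI gene were called, against 3.42% of all genes. With the acinar covariate, 2 assembly factors, 8 cargo receptors, 2 tethers and 1 COPI gene were called, against 7.68%. Leaving out a library gave 0 to 4 cargo receptors, 0 to 2 tethers, 0 to 1 COPI genes and 1 to 2 of 9 transcription factors. Of all genes, 0.822% to 7.4% were called. DESeq2 called 8.18% of all genes for KD against HFD. There it called 4 assembly factors, 4 cargo receptors, 2 tethers, 2 COPI genes and 5 transcription factors. Without a filter 1 tether and 2 transcription factors were called, against 1.02% of all genes. For that comparison, leaving out a library gave 0 to 2 assembly factors, cargo receptors and tethers, 0 to 1 COPI genes and 0 to 4 transcription factors. Of all genes, 9.84% were called without KD replicate 4 and 0% in each other omission.

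Whether replicate numbers pair the libraries could be judged only weakly. Each library was taken as its deviation from its diet mean, so the 2 HFD libraries are mirror images. LFD replicate 1, for example, correlated at 0.069 with HFD replicate 1 and at -0.069 with HFD replicate 2. Deviations of same-numbered libraries correlated between -0.016 and 0.222, and those of differently numbered libraries between -0.277 and 0.238. KD replicate 4 has no same-numbered library, so a replicate block gave it a term of its own and left it no weight in the diet differences. The block called 2003 genes (10.8%) for KD against LFD, 395 (2.13%) for HFD against LFD and 2320 (12.5%) for KD against HFD. For KD against LFD the block called 5 cargo receptors, 2 tethers, 2 COPI genes and 3 transcription factors, and for HFD against LFD 1 transcription factor. For KD against HFD it called 1 coat gene (Sar1b, log2 fold change -1.02), 3 assembly factors, 2 cargo receptors, 2 tethers, 1 COPI gene and 3 transcription factors. It turned Sec24b for KD against LFD to 0.041, Sec24d for HFD against LFD to -0.031, Sar1a for KD against HFD to -0.10, and for HFD against LFD the ratios Sec23b to Sec23a to -0.27 and Sec24c and Sec24d to Sec24a and Sec24b to -0.024. It gave Xbp1 0.66 for KD against LFD (edgeR adjusted p 0.0379).

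Signs turned mostly for differences near 0. With the acinar covariate, Sar1b was 0.10 and Sec24a -0.031 for KD against LFD, Sec23a -0.0156 and Sec24c 0.036 for HFD against LFD, and Sec13 -0.082 and Sec24a -0.17 for KD against HFD. For HFD against LFD, DESeq2 size factors gave Sec23a -0.0055, Sec24a -0.0124 and Sec24d -0.0247, TMM without acinar and hormone genes -0.0069, -0.0138 and -0.026, and the DESeq2 test -0.0058, -0.0124 and -0.0247. Sec24d was also -0.0001 by limma-voom, -0.0032 without a filter, -0.0074 with only those diets and -0.0176 at 5 CPM, where Sec24a was -0.0055. Sar1a for KD against HFD was -0.0076 by limma-voom and -0.0331 at 5 CPM. The coat mean for HFD against LFD was 0.0671 and 0.0657 under those scalings. On unscaled library totals, added after seeing the data, the coat mean was -0.46 for KD against LFD, 0.29 for HFD against LFD and -0.75 for KD against HFD, while the median of all genes was -0.55, 0.19 and -0.74.

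Leaving out a library, log2 fold changes for KD against LFD ran from -0.34 to 0.05 for Sar1b and -0.097 to 0.0375 for Sec24b. For HFD against LFD they ran from -0.13 to 0.23 for Sec23a, -0.0423 to 0.26 for Sec23b, -0.14 to 0.14 for Sec24a, -0.19 to 0.0939 for Sec24c and -0.17 to 0.15 for Sec24d. For KD against HFD they ran from -0.0825 to 0.0774 for Sar1a and -0.0195 to 0.26 for Sec24a. Without a change of sign, they ran from 0.16 to 0.45 for Sec23b, -0.45 to -0.18 for Sec23a, 0.14 to 0.43 for Sec24c and 0.28 to 0.61 for Sec24d. The ratio of Sec13 to Sec31a ran from -0.0941 to 0.11 for KD against LFD. The ratio of Sec23b to Sec23a ran from -0.27 to 0.38 for HFD against LFD, and that of Sec24c and Sec24d to Sec24a and Sec24b from -0.11 to 0.31 for HFD against LFD and from -0.0151 to 0.40 for KD against HFD. The coat mean ran from 0.0709 to 0.1022 for HFD against LFD and from 0.0624 to 0.1086 for KD against HFD.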

Other observations

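The COPI coat, which wraps vesicles that return from the Golgi to the ER, was measured beside COPII. Of its 10 genes, 0 passed for KD against LFD by the edgeR test, where 4.12% of all genes did. At an unadjusted p below 0.05, 5 were higher and 0 lower, against 10.8% and 11.9% of all genes, and the median log2 fold change was 0.27. The largest difference was in Copz2, named after its value was seen, with 28.0 ± 6.09 CPM in the 3 LFD libraries and 54.5 ± 17.2 in the 4 KD libraries (SD, log2 fold change 0.96, edgeR adjusted p 0.0659). Copb1 and Copb2, which encode the beta subunits, had log2 fold changes of -0.05 and 0.02, and Cope one of 0.55 (edgeR adjusted p 0.0527). Whether the COPI and COPII lists differ was not tested.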
